A study of Homo sapiens with 12 samples.

Results

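The 78 nuclear genes described here are named as proteins of the mitochondrial ribosome and were taken by symbol, as protein-coding genes named MRPL (large subunit, 49 genes) or MRPS (small subunit, 29 genes) followed by a number, out of 60483 genes in the deposited count table. The human embryonic kidney line HEK293 had been given a doxycycline-inducible cassette at a Flp-In T-REx site. Both groups carry sh-miRNAs against the endogenous DIS3L2 message and a recoded, FLAG-tagged DIS3L2, which is the wild type in the WT group and a catalytic mutant in the mut group. DIS3L2 is a cytoplasmic 3′ to 5′ exonuclease that favours uridylated RNA. Each group had 3 rRNA-depleted total RNA libraries, made after 3 days in 100 ng/ml doxycycline. Uninduced and parental cells were not analysed here. It is not stated whether the libraries of a group came from separate cultures, or a group from 1 or several lines, so p-values measure the spread between libraries, which may be technical.

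Mitochondrial ribosomes translate the few proteins encoded by mitochondrial DNA, all of them core subunits of the respiratory chain and ATP synthase. Their rRNAs are transcribed inside the organelle, whereas their proteins are made in the cytosol from nuclear genes scattered over the genome, imported, and assembled on the rRNA. They hold many proteins that bacterial ribosomes lack, and some old names are misleading: MRPS30 and MRPS18A sit in the large subunit, and the product of MRPS36 (KGD4 in RefSeq) belongs to the 2-oxoglutarate dehydrogenase complex.

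Most members differed little between the groups, and those past the test were nearly all higher in mut. Of the 49 large subunit genes 9 were higher and 0 lower, and of the 28 small subunit genes tested 7 were higher and 1 lower (edgeR quasi-likelihood test, adjusted p under 0.05). At an unadjusted p under 0.05, 13 large subunit genes were higher and 1 lower, and DESeq2 called 6 higher and 0 lower. Among all 14409 genes tested 13.0% were higher and 14.2% lower, and of the 77 tested members 20.8% were higher. The median log2 fold change (log2FC, mut over WT, here and throughout) was 0.08 for the large and 0.06 for the small subunit, with −0.01 over all genes. Members also varied less among themselves, with an SD of 0.17 in log2FC against 0.40 over all genes and 0.25 over nuclear protein-coding genes with a mean of at least 10 CPM (read counts scaled to library size). Such a narrow spread was not particular to them, as cytosolic ribosomal protein genes had an SD of 0.14 and nuclear-encoded respiratory chain subunits 0.16. MRPL36 was the 1 called member with an estimated change over 1.5-fold, and 8 of the 16 higher members exceeded 1.2-fold. In bulk RNA, fewer cells of a type and less RNA per cell cannot be told apart.

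Separation of the libraries gave the same picture. In 22 members all 3 mut libraries lay above all 3 WT libraries and in 3 they lay below, while 52 overlapped; over all genes 19.4% lay above and 21.2% below. The 24 members with a negative log2FC included MRPS25, the 1 member called lower. MRPL30 and MRPL32 also had every mut library below the WT libraries, at −0.13 and −0.07 (edgeR adjusted p = 0.17 and 0.46).

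**Figure D1:**
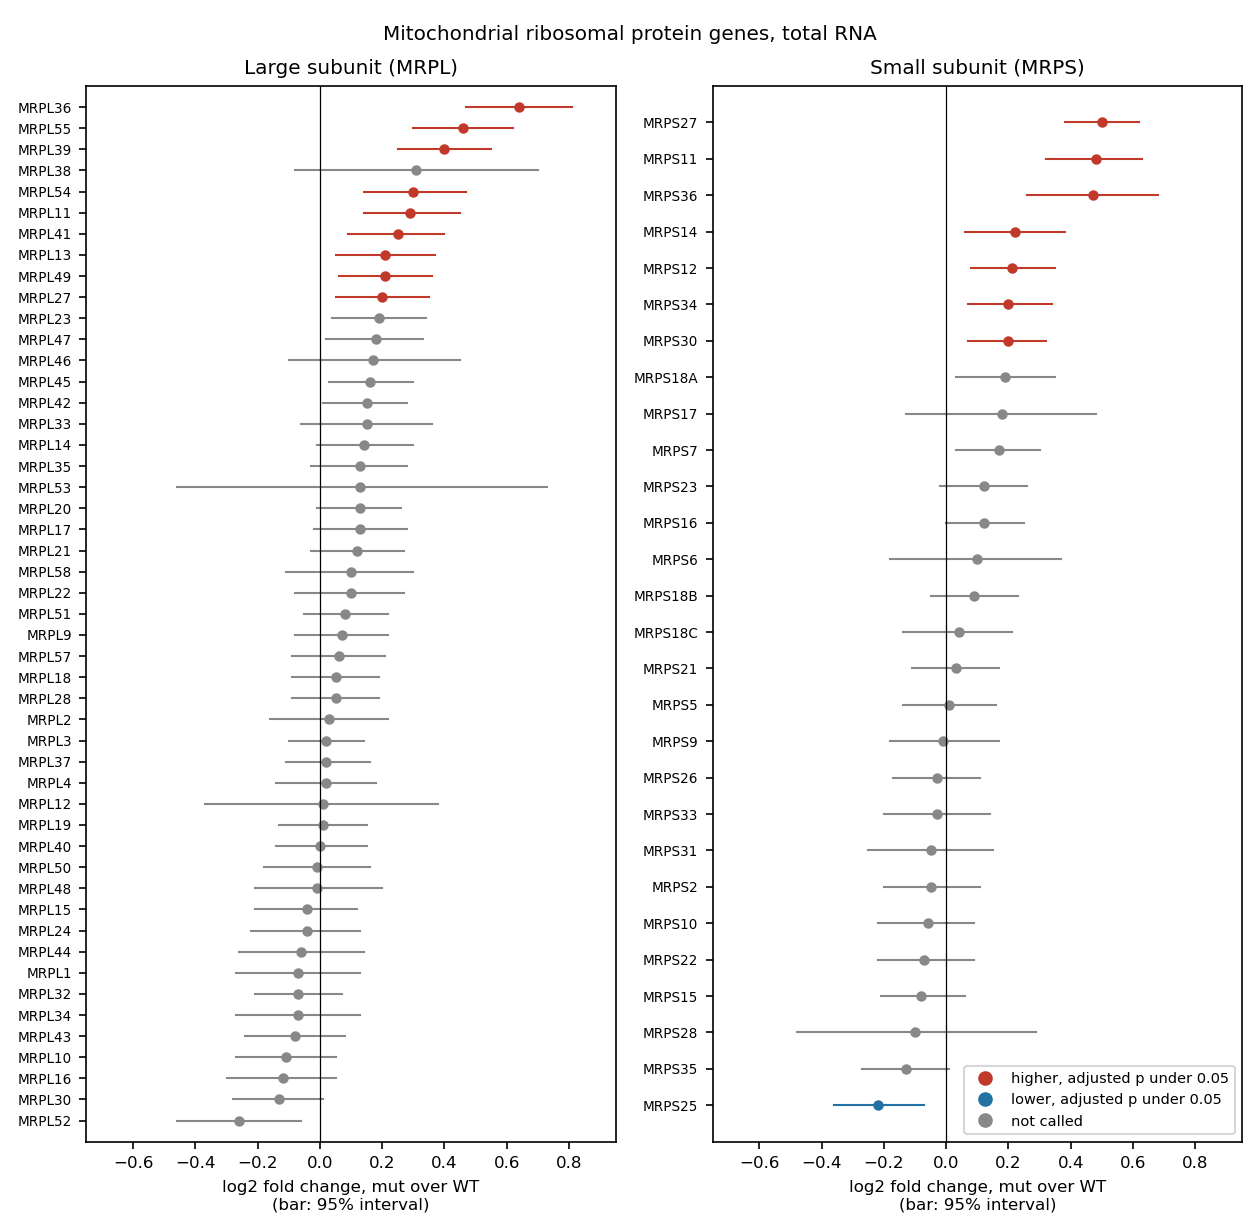
Log2 fold change of each tested member, mut over WT, with its 95% interval, for the large subunit (left, 49 genes) and the small subunit (right, 28 genes). Points in red (16) passed the edgeR test as higher and the point in blue, MRPS25, as lower; the other 60 in grey were not called.

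The members were short genes, with a median span of 8667 bases against 33438 for tested nuclear protein-coding genes, and short genes as a class leaned the same way. Of the 2309 nuclear protein-coding genes spanning up to 10 kb, 15.5% were higher and 6.06% lower, around a median of 0.07. The 40 members in that range had 10 higher and 0 lower and a median of 0.09. The 37 longer members had 6 higher, 1 lower and a median of 0.02, beside 12.6% higher, 17.1% lower and −0.03 for the 9860 longer protein-coding genes. With the dependence on gene span taken out of every library, the large and small subunit medians were both 0.04, and the genes called higher went from 9 to 8 in the large subunit and from 7 to 3 in the small subunit, while those among all genes went from 1867 to 2035. Whether the span trend accounts for the members' lean was not tested beyond this.

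Summed over genes, the large subunit stood at 3220, 3053 and 3082 CPM in mut, against 2951, 2962 and 2840 in WT. The small subunit stood at 2130, 2026 and 2063 CPM in mut and 1920, 1937 and 1878 CPM in WT. Neither sum overlapped between the groups, and the mut means were 1.069 and 1.084 times the WT means. The order was the same when libraries were scaled by total gene counts or by nuclear protein-coding counts (1.067 and 1.080 for the large subunit). Large subunit counts per small subunit count were 1.512, 1.507 and 1.494 in mut and 1.537, 1.529 and 1.512 in WT. The means were 1.504 ± 0.009 and 1.526 ± 0.013 (SD, n = 3), a gap of the order of the spread. Every mut ratio lay below every WT ratio, though the closest pair both read 1.512. The sums and the ratio follow the symbols, so MRPS30, MRPS18A and MRPS36 count as small subunit in them. Each of these genes had a higher mean in mut (164 against 143, 68.8 against 60.2 and 24.3 against 17.7 CPM). Sums and ratios with them regrouped were not analysed here, so the separation holds for the grouping by symbol only. A few abundant transcripts weigh most in such sums, and no test was made of them.

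For 3 of the rising members the DNA just before the gene start is printed, because each has the start of an opposite-strand gene close by whose transcript can be set beside its own. The sequences are from RefSeq, build GRCh38.p14, 5′ to 3′ on the strand of the member. MRPS27 is shown at chr5:72320241-72320372 (minus strand, 132 bases, the whole interval up to the start of PTCD2), MRPS11 at chr15:88467458-88467707 (plus strand, 250 bases, towards MRPL46) and MRPL54 at chr19:3762432-3762681 (plus strand, 250 bases, holding the start of the noncoding gene LOC105372248 and leading towards APBA3). Capitals mark matches to the motifs searched, which were GCGCNNGCG for NRF1 in MRPS11 (1 match on each strand, overlapping) and CCGGAAG for the ETS family in MRPL54 (on the opposite strand).
MRPS27: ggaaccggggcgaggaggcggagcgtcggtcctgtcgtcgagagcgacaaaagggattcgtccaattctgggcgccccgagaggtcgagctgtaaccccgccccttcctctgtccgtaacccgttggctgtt
MRPS11: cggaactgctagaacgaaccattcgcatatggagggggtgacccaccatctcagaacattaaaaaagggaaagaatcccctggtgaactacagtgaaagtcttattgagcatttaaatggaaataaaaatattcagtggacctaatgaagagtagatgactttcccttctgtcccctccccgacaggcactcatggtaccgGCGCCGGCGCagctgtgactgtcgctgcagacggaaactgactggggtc
MRPL54: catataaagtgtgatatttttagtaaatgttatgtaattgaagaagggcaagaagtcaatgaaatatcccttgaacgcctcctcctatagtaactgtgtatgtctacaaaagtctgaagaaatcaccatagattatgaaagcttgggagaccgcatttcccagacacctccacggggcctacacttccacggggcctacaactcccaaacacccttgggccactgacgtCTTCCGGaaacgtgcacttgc

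MRPL36, the counterpart of the small bacterial protein L36, had the largest change of all members. It was counted at 50.7, 48.6 and 47.5 CPM in the mut libraries and 27.9, 33.9 and 32.1 CPM in the WT libraries. The groups lay well apart, and the log2FC was 0.64 (SE 0.08, edgeR adjusted p = 2.5e-06). MRPL36 (ENSG00000171421.11) lies on chromosome 5 from 1798385 to 1801434 and shares 28 bases with NDUFS6 on the opposite strand, a gene for a complex I subunit that rose by 0.49 (SE 0.08, edgeR adjusted p = 4.8e-05). Strand use in the counting is not given in the sources used here, and reads overlapping several genes were not counted for either.

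MRPL55 (ENSG00000162910.17, chromosome 1, 228106685 to 228109299) encodes a large subunit protein. Its levels were 74.6, 64.6 and 65.2 CPM in mut and 48.7, 52.9 and 46.1 CPM in WT. They did not overlap, and the log2FC was 0.46 (SE 0.08, edgeR adjusted p = 6.6e-05). MRPL39 (ENSG00000154719.12, chromosome 21, 25585656 to 25607859), a protein of mitochondria alone, stood at 67.1, 78.5 and 72.6 CPM in mut and 55.4, 56.5 and 53.1 CPM in WT. Every mut library was above every WT library, with a log2FC of 0.40 (SE 0.07, edgeR adjusted p = 0.00019).

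MRPL11 (ENSG00000174547.12, chromosome 11, 66435075 to 66438848) builds the base of the stalk where translation factors bind. It stood at 89.4, 73.0 and 73.8 CPM in mut, the first library well above the other mut libraries, and at 63.6, 65.1 and 64.4 CPM in WT. The groups were separate (log2FC 0.29, SE 0.08, edgeR adjusted p = 0.0053). MRPL54, whose upstream sequence is shown above, had 52.0, 51.3 and 50.6 CPM in mut and 39.6, 46.0 and 38.3 CPM in WT (0.30, SE 0.08, edgeR adjusted p = 0.0055). Its mut libraries were tightly grouped and all above WT.

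The remaining large subunit genes past the test were smaller rises. MRPL41, absent from bacterial ribosomes, rose by 0.25, and MRPL13, the counterpart of L13, by 0.21. MRPL49, also specific to mitochondria, rose by 0.21, and MRPL27, whose bacterial counterpart reaches into the peptidyl transferase centre, by 0.20. Their mut and WT libraries did not overlap, but each of these calls depended on single libraries. All 4 were lost without the first mut or the third WT library (edgeR adjusted p of 0.056 to 0.18). MRPL13 was also lost without the second mut or the second WT library, MRPL27 without the first or second WT library, and MRPL49 without the second WT library. Without the third WT library 5 large subunit genes were called higher in place of 9. With all libraries kept, DESeq2 did not call MRPL13, MRPL27 or MRPL49 (DESeq2 adjusted p = 0.10, 0.089 and 0.073). With the span trend removed MRPL41 was at 0.07, MRPL27 at 0.13 and MRPL49 at 0.14, no longer called (edgeR adjusted p = 0.49, 0.13 and 0.11).

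Among small subunit genes MRPS27 (ENSG00000113048.15, chromosome 5, 72219403 to 72320240) had the smallest adjusted p. It encodes a pentatricopeptide repeat protein, of a family that binds organellar RNA. Its levels were 196, 199 and 195 CPM in mut and 141, 136 and 140 CPM in WT. The spread within either group was a small part of the gap, and the log2FC was 0.50 (SE 0.06, edgeR adjusted p = 4.3e-07). PTCD2, which starts 133 bases from MRPS27 on the other strand and encodes another protein of that family, had a log2FC of 0.25 (SE 0.10, edgeR adjusted p = 0.057).

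MRPS11 (ENSG00000181991.14, chromosome 15, 88467708 to 88480776) encodes the counterpart of S11, a protein of the small subunit platform. It was at 52.9, 52.8 and 49.1 CPM in mut and 38.1, 37.0 and 36.1 CPM in WT, without overlap (log2FC 0.48, SE 0.08, edgeR adjusted p = 3.5e-05). MRPL46, a protein of the large subunit's central protuberance, is transcribed away from MRPS11, from a start 320 bases off. It had 10.3, 12.8 and 13.6 CPM in mut and 12.1, 10.8 and 9.34 CPM in WT. These overlapped, and its log2FC of 0.17 had a 95% interval from −0.10 to 0.45 (edgeR adjusted p = 0.35), which takes in values close to that of MRPS11. The difference between these 2 changes was not tested.

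MRPS36 (ENSG00000134056.10, chromosome 5, 69217760 to 69230158), the dehydrogenase component named above, had 24.6, 24.4 and 23.8 CPM in mut and 19.9, 15.3 and 17.9 CPM in WT (log2FC 0.47, SE 0.10, edgeR adjusted p = 0.0012). MRPS30 (ENSG00000112996.8, chromosome 5, 44808947 to 44815514), a large subunit protein by structure, had 164, 170 and 157 CPM in mut and 147, 138 and 143 CPM in WT (0.20, SE 0.06, edgeR adjusted p = 0.017). The groups did not overlap in either gene. The MRPS30 call was lost without the second mut or the second WT library (edgeR adjusted p = 0.073 and 0.062), and once the span dependence was taken out (0.13, edgeR adjusted p = 0.083). With MRPS30 and MRPS18A counted in the large subunit and MRPS36 left out, 10 of 51 large subunit genes were higher and 0 lower, and 5 of 25 small subunit genes were higher and 1 lower.

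MRPS14 rose by 0.22, MRPS12 by 0.21 and MRPS34 by 0.20. MRPS14 belongs to the head of the small subunit, MRPS12 lines the decoding centre, and MRPS34 is specific to mitochondria. In MRPS34 the groups overlapped, with 158, 134 and 153 CPM in mut and 128, 135 and 124 CPM in WT. The MRPS14 call was lost on leaving out any library but the third WT library (edgeR adjusted p of 0.055 to 0.12). The MRPS34 call went without library 1 or 3 of either group (0.071 to 0.093), and the MRPS12 call without the first WT library (0.12). With the span trend removed MRPS34 was at 0.11, MRPS12 at 0.15 and MRPS14 at 0.17, none of them called (edgeR adjusted p = 0.17, 0.055 and 0.088). Without the first WT library 4 small subunit genes were called higher in place of 7.

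MRPS25 (ENSG00000131368.6, chromosome 3, 15042251 to 15065315), a small subunit protein without a bacterial counterpart, was the 1 member called lower. It had 54.4, 58.8 and 62.4 CPM in mut and 69.3, 66.2 and 68.6 CPM in WT, without overlap (log2FC −0.22, SE 0.07, edgeR adjusted p = 0.026). The call was lost without the first or second mut library, or without the first WT or the third WT library (edgeR adjusted p of 0.05 to 0.14). MRPL52 lay as low, at −0.26 (SE 0.10, edgeR adjusted p = 0.053), with overlapping libraries. In 5 of 13 alternatives it was called lower, among them without the first mut library (−0.34, edgeR adjusted p = 0.013), without the third WT library (−0.33, 0.025) and with the span trend removed (−0.32, 0.0054). Without the second WT library, the highest at 51.4 CPM, the value was −0.11 (edgeR adjusted p = 0.41), and without the second mut library −0.18 (0.20).

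**Figure D2:**
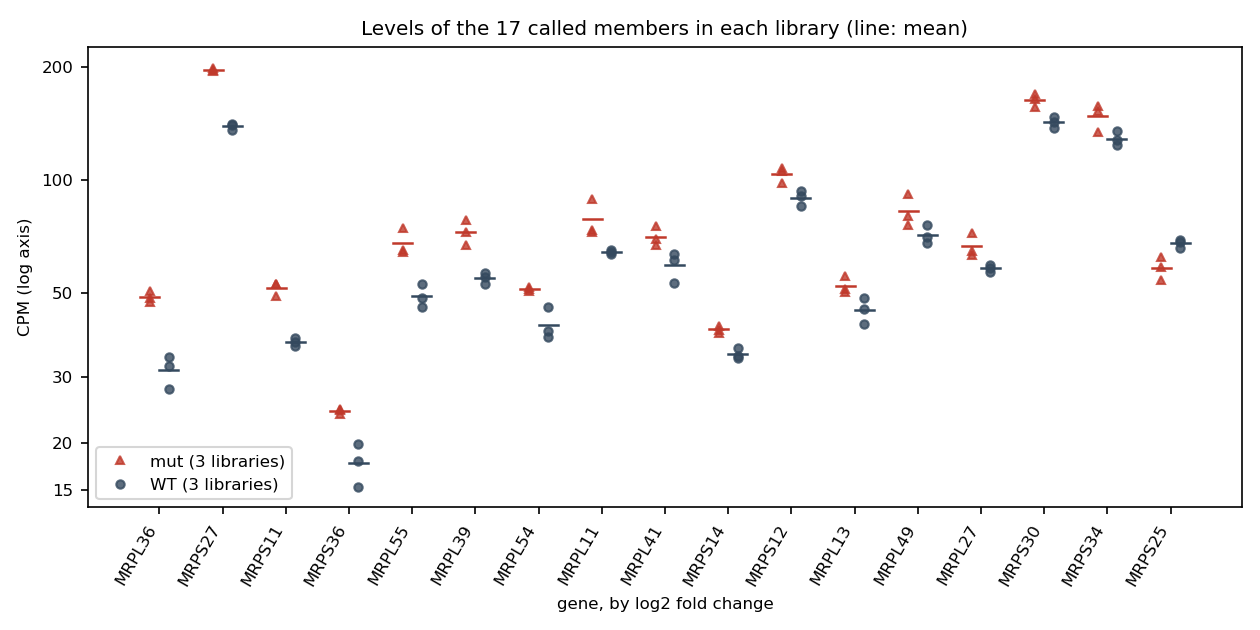
CPM of the 17 called members in each of the 3 mut and 3 WT libraries (log axis), with a line at each group's mean, ordered by log2FC. The groups do not overlap except in MRPS34, and MRPS25, at the far right, is the gene with mut below WT.

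The MRPS18 family holds 3 paralogs of the same bacterial protein, of which MRPS18C sits in the bacterial position, MRPS18B elsewhere in the small subunit and MRPS18A in the large subunit. MRPS18A had 75.3, 61.0 and 70.2 CPM in mut and 55.8, 62.1 and 62.8 CPM in WT (log2FC 0.19, SE 0.08, edgeR adjusted p = 0.068). MRPS18B had 106, 96.4 and 108 CPM in mut and 97.7, 104 and 89.3 CPM in WT (0.09, SE 0.07, edgeR adjusted p = 0.36). MRPS18C had 28.8, 29.7 and 29.9 CPM in mut and 28.6, 28.8 and 28.8 CPM in WT (0.04, SE 0.08, edgeR adjusted p = 0.79). The groups overlapped in all 3 paralogs. MRPS18A was called higher without the second mut library (0.27, edgeR adjusted p = 0.013) and with libraries scaled over nuclear protein-coding genes.

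By place in the ribosome, no region stood out by its count. Of the stalk genes 1 of 4 was higher (MRPL11), of those around the peptidyl transferase centre 1 of 5 (MRPL27), and of those at the exit tunnel rim 0 of 6, though that group had the largest median of these regions, 0.15 (edgeR; 3 at an unadjusted p under 0.05, 0 by DESeq2). The exit tunnel genes MRPL17, MRPL45 and MRPL47 each had all mut libraries above WT, at 0.13, 0.16 and 0.18 (edgeR adjusted p = 0.18, 0.071 and 0.084). In the central protuberance 0 of 6 were higher by edgeR, by DESeq2 or at an unadjusted p under 0.05, with a median of 0.07. Head proteins of the small subunit had 1 of 5 higher (MRPS14) and a median of −0.01, and body and platform proteins 2 of 11 (MRPS11 and MRPS12) and 0.09. Proteins listed as without a bacterial counterpart had 7 higher and 1 lower of 29, and those with one 7 higher and 0 lower of 46. MRPL55, called higher, and MRPS36 were in neither count.

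The tests were sharp enough to bound most members. Of the 60 members not called, 33 had a 95% interval within a 1.2-fold change in either direction, and the interval of 2 reached 1.5-fold. MRPL53 and MRPL38 were those least well measured among the large subunit, with means of 1.79 and 4.70 CPM in mut. MRPS24 was not tested, with 13, 11 and 9 counts in mut and 9 in each WT library. Its span overlaps the read-through gene URGCP-MRPS24, and whether reads were lost to that overlap was not tested.

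Where a member lies in the genome went with how it moved. The 6 largest rises were MRPL36, MRPS27, MRPS11, MRPS36, MRPL55 and MRPL39, and in 5 of them the 10 nearest tested protein-coding genes on either side had a median log2FC of 0.20 or more to 2 decimals. This window was chosen after the data were seen. Around MRPL55 16 of 20 neighbours were higher and 0 lower (median 0.49), around MRPS11 14 and 0 (0.47), around MRPS36 12 and 0 (0.25), around MRPS27 11 and 0 (0.25), and around MRPL36 9 and 0 (0.20). MRPL39 differed, with 3 of 17 neighbours higher and a median of 0.04. The smaller rises of MRPS14 and MRPS30 also lay among rising neighbours (0.23 each).

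Across the 77 tested members the log2FC and the neighbours' median had a Pearson r of 0.59 and a Spearman rho of 0.47, a description only, since neighbours share windows and all values come from the same 6 libraries. Of the 16 higher members 8 had a neighbours' median above 0.1, as had 16 of the 77 tested. MRPL46 shared the neighbourhood of MRPS11 and was not called. Members were above their neighbours' median in 51 of 77 cases, and the median of that difference was 0.07. MRPL13 rose where 0 neighbours were higher and 7 lower (median −0.16). MRPS25 fell where 4 were higher and 0 lower (−0.04), though DESeq2 called neither gene. What moved these segments was not tested.

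**Figure D3:**
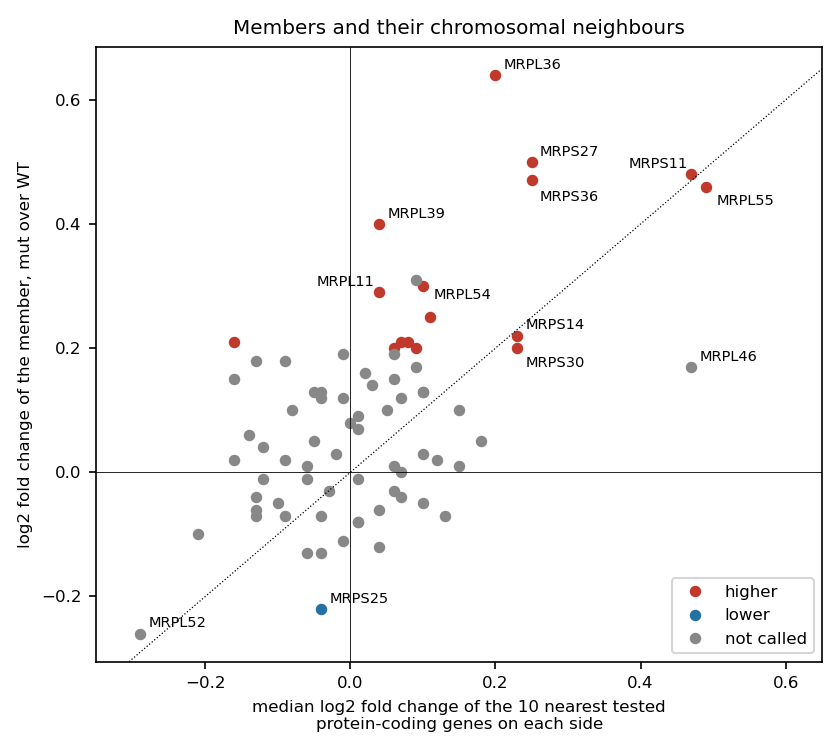
Log2 fold change of each of the 77 tested members (vertical axis) against the median log2FC of the 10 nearest tested protein-coding genes on each side (horizontal axis), with the line of equality dotted. MRPS11, MRPL55, MRPS36, MRPS27 and MRPL36 lie to the right, among rising neighbours, while MRPL39 and MRPL11 (neighbours' median 0.04 each) do not.

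Chromosome 5 showed this most plainly, with 4 of its 5 members higher. MRPL36, MRPS30, MRPS36 and MRPS27 lie in that order along its first part, and MRPL22, an exit tunnel protein far along the long arm, was at 0.10 (SE 0.09, edgeR adjusted p = 0.44). Of 150 other tested protein-coding genes that start before MRPS27, 67 were higher and 1 lower (median 0.21). Of 406 that start after it, 33 were higher and 90 lower (median −0.06). MRPS27 was thus the last member before the level dropped. MRPL36, MRPS36 and MRPS27 stood above the median of their neighbours (0.64 against 0.20, 0.47 and 0.50 against 0.25), and MRPS30 just below it (0.20 against 0.23). The division at MRPS27 was drawn after the data were seen.

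**Figure D4:**
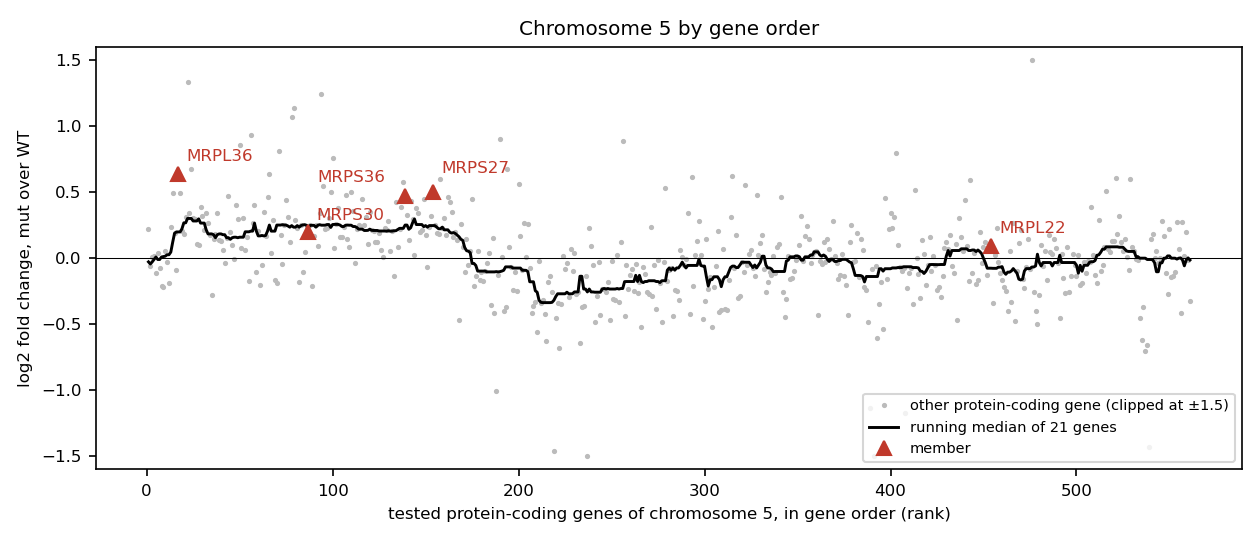
Log2 fold change of tested protein-coding genes of chromosome 5 in gene order, with the running median of 21 genes as a line and the 5 members as triangles. MRPL36, MRPS30, MRPS36 and MRPS27 fall within the stretch at the left where the running median is near 0.2, and MRPL22 (0.10) lies outside it.

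A like pattern, with an exception, was seen when each chromosome was divided by gene order into 4 segments. In segments where other protein-coding genes had a median above 0.1 there were 10 members, of which 7 were higher, with a median of 0.21. In segments below −0.1 there were 11 members, of which 0 were higher, with a median of 0.02. In the segments between there were 56 members, of which 9 were higher, with a median of 0.08. MRPL55 and MRPS14 lie in the last segment of chromosome 1 (178 of 302 other genes higher, median 0.31), and MRPS11 and MRPL46 in that of chromosome 15 (61 of 99, 0.35). MRPL52 lies in the first segment of chromosome 14, where 61 of 103 other genes were lower (−0.35). MRPS27 went against it, since by this division it falls in a segment of chromosome 5 with 21 of 139 other genes higher and 42 lower (−0.09).

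Genes that share a start region with a member were set beside it. Among the 70 members with a RefSeq promoter entry, 29 (41.4%) had an opposite-strand start within 1000 bases, against 24.3% of 15843 protein-coding promoters. Of the 20 tested protein-coding partners that are not members, 3 were higher, beside 13.0% of all genes (TMEM63B, NCAPD2 and OAZ3, beside MRPL14, MRPL51 and MRPL9) and 1 lower (ZNF189, beside MRPL50), and none of those 4 members was called. Of the 7 higher members with a tested protein-coding partner, 0 had a partner called higher. MRPL36 was not among these 7, and the start used for it lies inside its span, next to 1799838. NDUFS6, which overlaps MRPL36 by 28 bases on the opposite strand, was therefore not counted as a partner. NDUFS6 was called higher (0.49, SE 0.08, edgeR adjusted p = 4.8e-05), so the count of 0 leaves out a pair in which both genes rose. Besides PTCD2 and MRPL46, already given, SARS2 beside MRPS12 had 0.27 (SE 0.12, edgeR adjusted p = 0.11), APBA3 beside MRPL54 0.14 (SE 0.12, 0.40) and EME2 beside MRPS34 0.09 (SE 0.09, 0.45). FAU beside MRPL49 had −0.12 (SE 0.06, 0.14), and EME1 beside MRPL27 −0.07 (SE 0.10, 0.65). The partners' standard errors are large, so rises of the members' size were not detectable in several.

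Motifs of 3 factors known to act on genes for mitochondrial proteins were searched on both strands of the 300 bases around each start (250 before and 50 after). CCGGAAG, for the ETS family to which GABPA belongs, was in 29 of 70 member promoters (41.4%) and 14.2% of protein-coding promoters (10.3% of all promoters). AAGATGGCG, for YY1, was in 13 (18.6%) and in 2.74% (1.75% of all promoters). GCGCATGCG, for NRF1, was in 3 (4.29%) and in 2.76% (1.92%), and the looser GCGCNNGCG in 18 (25.7%) and 23.3% (16.7%). Every match to the first NRF1 motif is also one to the second. Members with the ETS motif had a median log2FC of 0.05 and 4 of 29 higher, and those without it 0.09 and 11 of 40. With the YY1 motif the median was 0.12 and 2 of 12 were higher, and without it 0.06 and 13 of 57. A match is a description and not a binding site. YY1 itself rose by 0.19 (edgeR adjusted p = 0.018), GABPA was at 0.16 (0.12) and NRF1 at −0.05 (0.71).

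Other lists of mitochondrial translation genes were counted the same way, with no test of a difference from the members. The first list, of 6 genes, held mitoribosome proteins with other names and OXA1L, which is not one of them. Of these 6, 0 were higher by edgeR or DESeq2 and 2 lower by edgeR, and the median was −0.07 (1 higher and 3 lower at an unadjusted p under 0.05). OXA1L, the inner membrane insertase that binds the ribosome, fell by 0.54 (edgeR adjusted p = 4.6e-06) and lies on chromosome 14, and PTCD3, the small subunit's other pentatricopeptide repeat protein, fell by 0.16 (0.049). The rest were not called, with AURKAIP1 at 0.15, DAP3 at 0.08, CHCHD1 at 0.01 and GADD45GIP1 at −0.18. Of 35 genes for assembly and rRNA modification 6 were higher and 5 lower, and the median was 0.02. NGRN, needed for 16S rRNA, rose by 0.65 (1.2e-07, chromosome 15), AFG3L2, the protease that processes MRPL32, by 0.46 (3.7e-06, chromosome 18), and the helicase gene DHX30 by 0.32 (0.00015). TFB1M, the 12S rRNA dimethyltransferase, fell by 0.63 (0.00075), METTL17 by 0.31 (0.0025) and the RNA granule protein GRSF1 by 0.22 (0.011).

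Translation factors had 0 of 14 higher and 3 lower by edgeR, 0 and 1 by DESeq2, and 2 and 4 at an unadjusted p under 0.05. The elongation factor GFM1 fell by 0.22, GUF1 by 0.25 and the initiation factor MTIF2 by 0.25 (edgeR adjusted p = 0.014, 0.020 and 0.023). Of 20 mitochondrial tRNA charging genes 4 were higher and 0 lower (median 0.02), and the synthetase genes VARS2 and IARS2 rose by 0.46 and 0.20 (edgeR adjusted p = 6.0e-05 and 0.012). Of 13 genes for mitochondrial transcription and its nuclear regulators, YY1 rose and MTERF1, which binds mitochondrial DNA, fell by 0.43 (edgeR adjusted p = 0.0077). The rRNAs that the members bind were lower: MT-RNR1 (12S) was at 14791 ± 151 CPM in the mut libraries, against 17551 ± 1253 in WT (SD, n = 3), and MT-RNR2 (16S) at 88548 ± 6824 and 108713 ± 15278. Their log2FCs were −0.25 and −0.30 (edgeR adjusted p = 0.00021 and 0.00071) in libraries that had been depleted of rRNA, and the part of that step was not tested. Of the 13 mitochondrial mRNAs, 12 were lower too, by log2FC of −0.28 to −0.81. Of the 15 rRNAs and mRNAs together, edgeR called 14 lower and DESeq2 8, and the libraries of the groups overlapped in 3.

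Set beside the families it works with, the mitoribosome was not alone in its lean. The 85 cytosolic ribosomal protein genes had 16 higher (18.8%), 4 lower (4.71%) and a median of 0.04. The 76 nuclear-encoded respiratory chain subunits had 10 higher (13.2%), 1 lower (1.32%) and a median of 0.07. The large subunit had 18.4% and 0%, and the small subunit 7 of 28 genes and 3.57%. No test of a difference between these families was made.

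**Figure D5:**
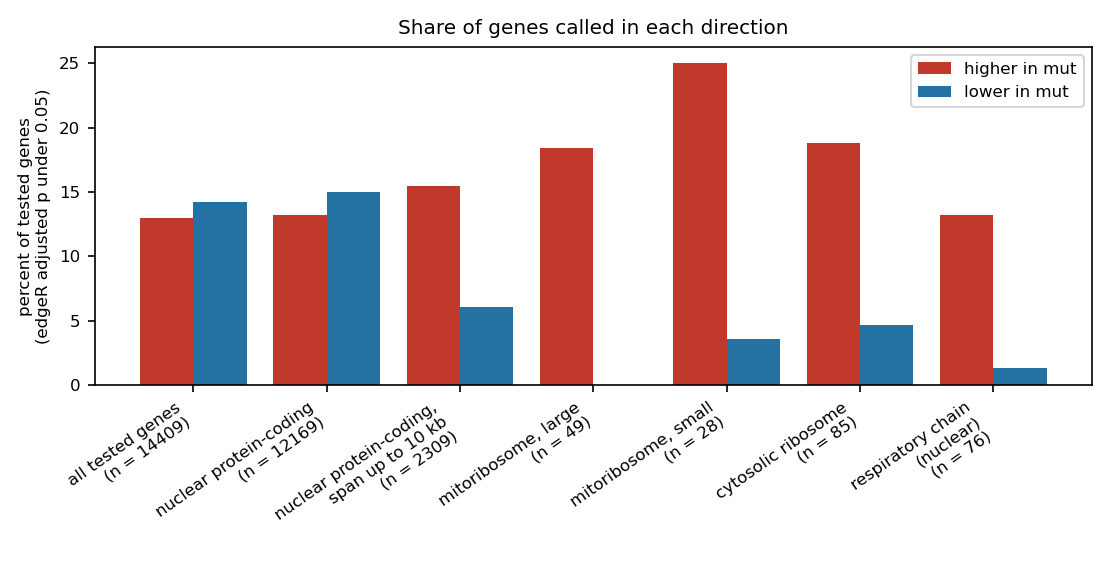
Percent of tested genes called higher (red) or lower (blue) in mut by edgeR at an adjusted p under 0.05, for all tested genes, background classes, both mitoribosome subunits and 2 other families, with the number tested in brackets. Calls of lower genes are scarce in the mitoribosome (0% and 3.57%), in the respiratory chain (1.32%) and, less so, in short protein-coding genes (6.06%), beside 14.2% over all genes.

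Counts in genes ranged from 8315986 to 12675042 per library, and rows naming no gene held 57.8% to 63.2% of reads. Reads outside genes made up 12.3% to 13.7% in mut and 16.6% to 19.4% in WT, without overlap. Reads overlapping several genes made up 8.6% to 9.9% in mut and 6.9% to 8.3% in WT, and 18 members overlap another protein-coding gene; the part of these shares in the results was not tested. DIS3L2 was counted in both groups, at 1092 ± 51.6 CPM (mut) and 784 ± 25.8 CPM (WT, SD, n = 3), a sum that may hold transgene and endogenous transcripts. Its level was called higher in mut (log2FC 0.48, SE 0.05, edgeR adjusted p = 1.9e-07), so the groups differed in DIS3L2 counts as well as in the variant. All 5 markers of HEK293 cells had some counts, with sums of 156 to 168 CPM in mut and 110 to 120 in WT. Most of this came from NEFL (means of 126 in mut and 88.3 in WT) and INA (35.1 and 24.0). LHX1 was at 2.09 and 1.33 CPM, and NEFM and PAX2 did not pass the count filter. Fibroblast markers (4, of which 1 at 0) summed to 4.43 to 6.66 CPM in mut and 2.60 to 3.55 CPM in WT, and blood markers (3, of which 2 at 0) to at most 0.158 CPM. The part of these shifts in the members' values was not tested. Reads assigned to 78 pseudogenes named after members came to 343, beside 283999 in the members.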

How the data were processed

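Total RNA libraries were strand-specific and rRNA-depleted, per the labels' protocols. The authors deposited raw read counts per Ensembl gene; STAR 2.4.0, HTSeq 0.6.1, DESeq2 1.8.2, SAMtools 1.2-10, CASAVA 1.8.2, FastQC 0.11.3 and hg38 are listed by the submitters' processing notes with no roles. For the strand setting and annotation version nothing is given in the sources used here. The small RNA libraries were not used.

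Symbols matched 56321 of 60483 identifiers. Positions, strands and promoters are from RefSeq (GRCh38.p14), with promoters for 70 of 78 members. Counts of 6 libraries were tested with edgeR 4.0.16 (R 4.3.3; TMM, filterByExpr, quasi-likelihood F test, two-sided, Benjamini-Hochberg over 14409 genes at 0.05), after a check on simulated counts. CPM use TMM-scaled library sizes. DESeq2 1.42.0, other scalings, no filter, a span correction, a replicate block, a test against 1.2-fold and leaving out each library were alternatives.

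Members and lists were chosen with earlier results of these data known. Every member past the test is named. Library values are given for the 4 smallest adjusted p in each direction and subunit and for set genes, MRPL54 being added because its promoter is printed. Of other lists, 3 per direction are named, except 1 gene that is not reported here. Levels per coding length and protein sequences, planned, were not analysed here. GTPBP5 is a second name of MTG2 and was counted once. MRPL55 was left out of both counts by bacterial counterpart. Replicate pairs differed by more than sampling noise (chi-square per degree of freedom 1.89 to 4.04). Intervals cover the spread between libraries only.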

Additional observations from a re-analysis of the deposited data

How the results depend on the processing

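Among the 17 called members, MRPL36, MRPL55, MRPS11 and MRPS27 were called in all 13 alternatives, and MRPL11, MRPL39, MRPL54 and MRPS36 in all but the test against a 1.2-fold change. That test left 463 genes higher and 447 lower in all, 2 large and 2 small subunit genes higher and 0 small subunit genes lower. DESeq2 called 1357 genes lower and 0 small subunit genes lower. It kept 12 of the 17 calls and lost 5, those of MRPL13, MRPL27, MRPL49, MRPS14 and MRPS25 (DESeq2 adjusted p of 0.072 to 0.11). Scaling over nuclear protein-coding genes called 11 large and 9 small subunit genes higher. Without the count filter 1 large subunit gene was lower, as it was with the span trend removed, where 3 small subunit genes were higher and MRPS18C went to −0.02. Leaving out 1 library gave 1327 to 1832 genes higher and 1274 to 2109 lower, 5 to 10 large subunit genes higher and 0 to 1 lower, and 4 to 7 small subunit genes higher and 0 to 1 lower. The subunit medians stayed positive in the 13 alternatives (0.04 to 0.14), and the regrouped small subunit had 0.03.

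Same-numbered libraries did not deviate together (correlations −0.09, −0.07 and 0.03, and 0 of 6 libraries correlated best with their own number). These values gave no sign of pairing by number, but a lack of shared deviation cannot show how the libraries were prepared. With the replicate block 4 small subunit genes were higher and 0 lower, and 1 large subunit gene was lower. With 3 libraries a group the smallest change called in a member was 0.20.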
